A study of Mus musculus with 6 samples.

Results

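Histone genes were examined in haematopoietic stem cells of C57BL/6J mice, sorted into CCR2-positive and CCR2-negative pools. CCR2 is the receptor for the chemokine CCL2. The histone genes were taken from the platform's probe annotation by symbol: every older Hist symbol, and every symbol made of H1f, H2ac, H2bc, H3c or H4c and a number. They are 29 of the 22180 genes with a probe set of their own, with 8 genes for the linker histone H1, 6 for H2A, 8 for H2B and 7 for H4. No H3 gene is among them, because every probe set that lists an H3 gene lists several. The genes lie on chromosome 13 (21 genes), on chromosome 3 (5 genes) and singly elsewhere (3 genes), per RefSeq of assembly GRCm38.p6.

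The series holds 3 CCR2-positive and 3 CCR2-negative pools, each pool from the marrow of 20 mice and each on 1 array. The sources used here give no age, no sex and no further marker used in sorting, and do not say if pools of opposite sort came from the same animals. From each pool 5 ng of total RNA was amplified before labelling, and values are RMA values on the log2 scale. Differences are CCR2-positive minus CCR2-negative means with a standard error, and the threshold is a Benjamini-Hochberg adjusted p of 0.05 in a limma fit over all genes.

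Histones package DNA: H2A, H2B, H3 and H4 form the core of the nucleosome, and H1 binds the DNA between cores. Most of their genes are replication-dependent. They are transcribed in S phase, and their mRNA ends in a stem-loop in place of a poly(A) tail, which the stem-loop binding protein SLBP recognises. Haematopoietic stem cells of adult marrow are mostly quiescent and enter S phase rarely unless they are activated. Not all of the 29 genes fit the name replication-dependent. H1f6, H1f7, H2ac1 and H2bc1 encode testis histones, H1f8 encodes the oocyte linker histone and H1f10 encodes the replication-independent linker histone H1x. The other 23 genes are called the core of the family here, and that each is replication-dependent was not tested. Among them H2bc21 encodes the variant H2BE, and its gene spans 2667 bases.

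The Ccr2 transcript itself had 6.70 ± 0.47 in CCR2-positive and 5.91 ± 0.32 in CCR2-negative pools (SD, n = 3 each), an adjusted limma p of 0.274. The groups overlapped, with 6.18 in CCR2-positive replicate 3 and 6.26 in CCR2-negative replicate 2. Stem cell surface markers had a list mean of 7.14 to 7.41 in CCR2-positive and 7.55 to 7.70 in CCR2-negative pools, and 7 of 9 measured members were lower in CCR2-positive pools. Of the markers fixed for other marrow cells, 16 of 16 erythroid, 12 of 13 monocyte (Ccr2 among them), 13 of 14 neutrophil, 7 of 9 B cell and 8 of 9 T and NK cell genes had a higher mean in CCR2-positive pools. The erythroid list mean was 8.52 to 9.04 in CCR2-positive and 7.84 to 8.32 in CCR2-negative pools, the monocyte mean 6.18 to 6.61 and 5.91 to 6.12, and the neutrophil mean 5.49 to 6.07 and 5.27 to 5.58. The B cell mean was 5.01 to 5.23 in CCR2-positive and 5.01 to 5.08 in CCR2-negative pools, and the T and NK cell mean 4.92 to 5.06 and 4.84 to 4.86. A higher mean in CCR2-positive pools was also found for 12422 of all 22180 genes. Only 2 of the 9 B cell and 1 of the 9 T and NK cell genes lay over the median level of all genes. In both lists 0 genes had an unadjusted limma p under 0.05. The part of these other marrow cells in the histone values was not tested. In pooled RNA, fewer cycling cells and less histone mRNA per cycling cell cannot be told apart.

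Promoter windows of 4 genes are shown because they belong to genes the values below turn on: H2bc9 and the window that runs into H2bc21 for the H2B genes that stood apart by pool, H1f5 and H4c12 as members with narrow intervals. Each runs from 250 bases before to 50 bases after the RefSeq start, 5′ to 3′ on the gene's strand, on GRCm38.p6. Capitals mark the CCAAT box, the TATA box spelled TATAAA, the octamer ATTTGCAT and the H1 box AAACACA, searched on both strands, and no base lies in more than 1 of them. The H2bc9 window is chr13:23543395-23543694, that of H2ac20 is chr3:96220831-96221130, that of H1f5 is chr13:21780576-21780875 and that of H4c12 is chr13:21750504-21750803, all on the minus strand.
H2bc9: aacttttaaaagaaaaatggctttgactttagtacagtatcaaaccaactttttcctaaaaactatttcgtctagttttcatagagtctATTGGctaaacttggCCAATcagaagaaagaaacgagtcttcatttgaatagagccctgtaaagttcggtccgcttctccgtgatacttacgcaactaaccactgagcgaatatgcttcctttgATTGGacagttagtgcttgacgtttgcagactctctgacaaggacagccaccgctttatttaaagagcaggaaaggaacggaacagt
H2ac20: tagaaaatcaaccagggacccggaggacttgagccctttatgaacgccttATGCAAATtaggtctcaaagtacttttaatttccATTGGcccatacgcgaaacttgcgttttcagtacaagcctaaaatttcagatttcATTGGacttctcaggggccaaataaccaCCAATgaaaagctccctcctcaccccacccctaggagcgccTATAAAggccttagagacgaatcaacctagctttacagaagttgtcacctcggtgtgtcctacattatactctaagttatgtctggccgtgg
H1f5: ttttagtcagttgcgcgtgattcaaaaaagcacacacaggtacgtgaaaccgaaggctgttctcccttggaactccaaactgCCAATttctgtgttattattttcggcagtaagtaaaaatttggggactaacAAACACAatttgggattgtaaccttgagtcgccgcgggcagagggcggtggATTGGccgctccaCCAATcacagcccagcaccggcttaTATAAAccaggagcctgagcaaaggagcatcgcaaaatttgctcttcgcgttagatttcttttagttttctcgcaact
H4c12: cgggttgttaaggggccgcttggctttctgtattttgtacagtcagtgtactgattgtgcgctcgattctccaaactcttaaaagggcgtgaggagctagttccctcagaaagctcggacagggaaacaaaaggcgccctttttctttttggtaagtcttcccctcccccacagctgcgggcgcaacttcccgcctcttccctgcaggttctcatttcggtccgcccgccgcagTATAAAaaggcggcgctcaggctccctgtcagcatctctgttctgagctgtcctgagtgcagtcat

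RefSeq windows were found for 27 of the 29 genes, all but H2bc21 and H4c14. The windows of H2ac12 and H2bc12 share 277 bases and those of H2ac1 and H2bc1 share 220, because these H2A and H2B genes start next to each other and point apart. The last 59 genomic bases of the H2ac20 window lie inside the neighbouring H2bc21 gene. CCAAT was found in 6 of 6 H2A and 7 of 7 H2B windows, in 6 of 8 H1 windows and in 1 of 6 H4 windows, against 37.4% of 32851 windows of all genes. The octamer, known from H2B promoters, was found in 5 of 7 H2B and 3 of 6 H2A windows. It was in 0 of 8 H1 and 0 of 6 H4 windows, and in 1.74% of all windows. In H2ac12 and H2ac1 the octamer is the same bases as in H2bc12 and H2bc1, and in H2ac20 it lies inside the H2bc21 gene. All 3 H2A matches thus lie in stretches shared with an H2B gene. A match of any motif in bases shared by windows was counted for each window. TATAAA stood in 16 of 27 histone windows and 13.6% of all windows. The H1 box stood in 4 of 8 H1 windows, that of the testis gene H1f6 among them, and in 7.18% of all windows. It was also in 2 of 7 H2B and 1 of 6 H2A windows, and in 0 of 6 H4 windows. H2bc9 has CCAAT but none of the other letters searched, and H4c12 has TATAAA alone. A match describes the letters of a window and shows no binding.

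The differences of histone genes between CCR2-positive and CCR2-negative stem cells fell on both sides of 0. Of the 29 genes, 12 had a higher and 17 a lower mean in CCR2-positive pools, with a median difference of -0.032, where the median of all genes was 0.027. The median of all genes depended on level. Among genes over the median level it was -0.033, and the 16 histone genes there had a median of -0.040. No histone gene passed the threshold (0 of 29, background 0% of all genes), and the smallest adjusted p among them was 0.259. An unadjusted p under 0.05 was found for 3 genes, 10.3% of the family against a background of 12.2%. Of these, 2 had higher means in CCR2-positive pools, H2bc9 and H1f7 (background 5.63%), and 1 a lower mean, H2bc21 (background 6.61%). The same 3 were the genes whose pools did not overlap between the groups, again 10.3% against a background of 18.6%, or of 10.8% for higher and 7.88% for lower CCR2-positive pools. Neither share exceeded that of all genes.

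How far the data bound each difference can be read from the 95% intervals. For 17 of the 29 genes (58.6%) the interval lay inside a 1.5-fold difference in either direction, which held for 77.8% of all genes. The median standard error was 0.143 for histone genes and 0.127 for all genes. Histone genes spread more between pools of 1 group, with a median SD of 0.18 in CCR2-positive and 0.24 in CCR2-negative pools, against 0.15 and 0.13 over all genes. The S phase genes used below had 0.20 and 0.12, and those of G2 and mitosis 0.20 and 0.14. The CCR2-positive spread was thus not particular to histone genes. For the other 12 histone genes a 1.5-fold difference lay within the interval. Without the 6 testis, oocyte and H1x genes the core of 23 had a median difference of -0.025, with 10 higher, 13 lower and 2 at an unadjusted p under 0.05.

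**Figure D1:**
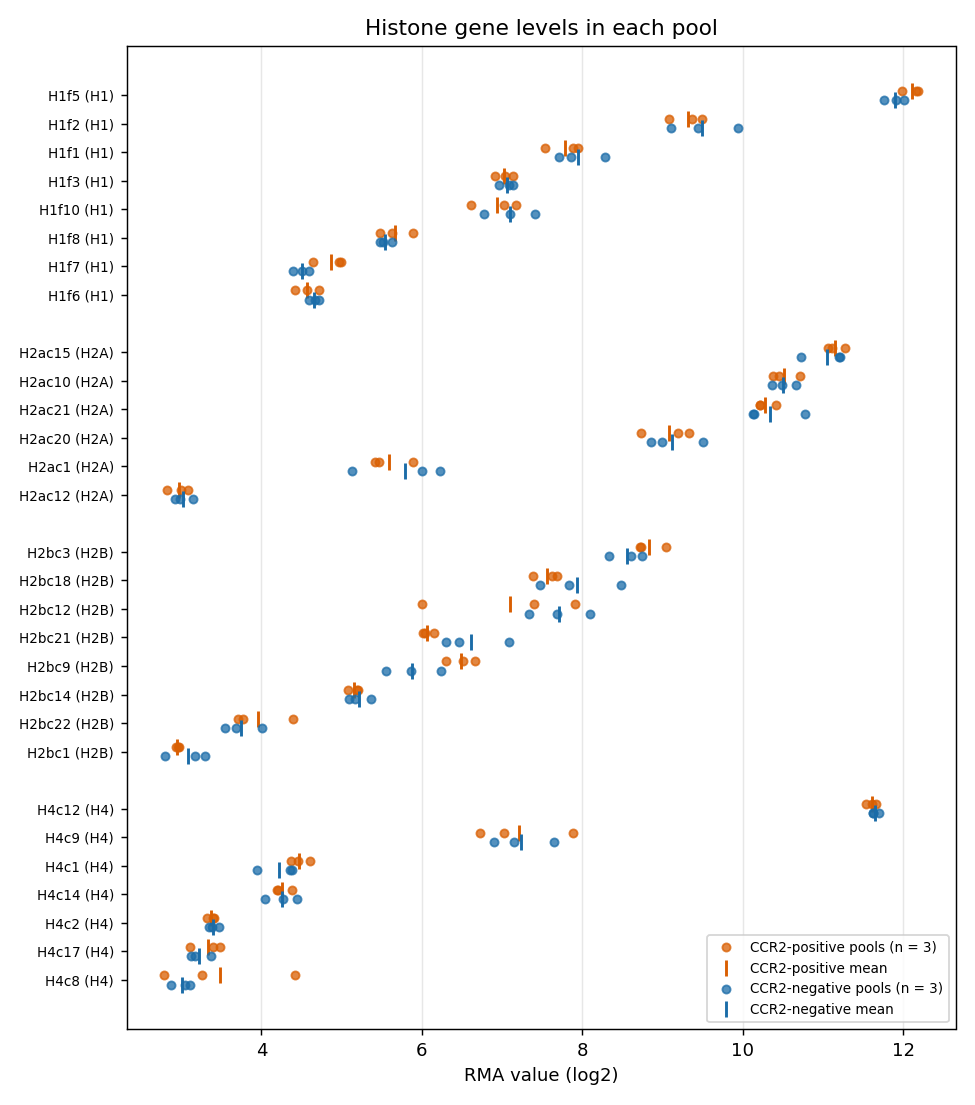
RMA values (log2, horizontal axis) of the 29 histone genes in each pool, grouped by class; points are single pools, bars the mean of 3. CCR2-positive (orange) and CCR2-negative (blue) pools overlap for all genes but H1f7, H2bc9 and H2bc21, where the colours are apart. Values of different genes come from different probes and are not comparable with each other.

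**Figure D2:**
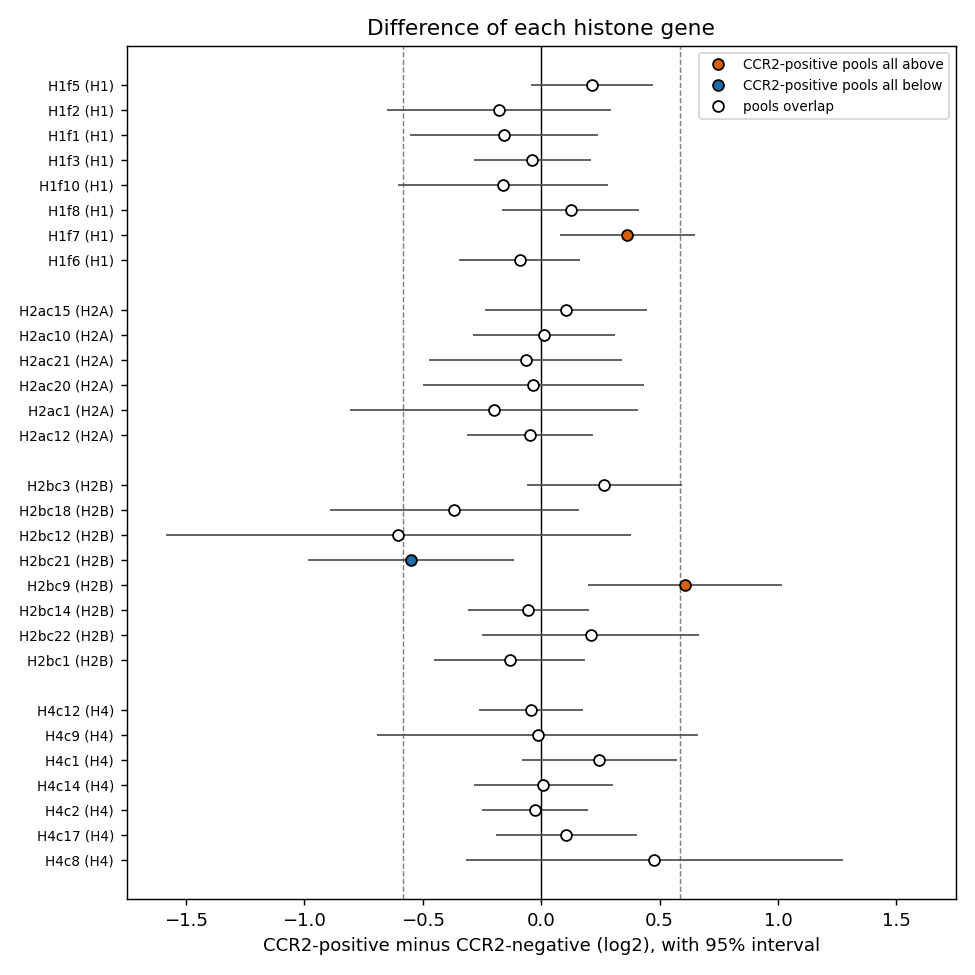
Difference of each histone gene, CCR2-positive minus CCR2-negative on the log2 scale, with its 95% limma interval; dashed lines mark a 1.5-fold difference in either direction. Filled points are the 3 genes whose pools did not overlap, and the intervals of all other genes include 0.

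Among the linker histones, H1f5 encodes H1.5, a somatic linker histone of dividing cells. Its values were 12.16, 12.18 and 11.98 in CCR2-positive and 12.01, 11.91 and 11.76 in CCR2-negative pools. The groups met at CCR2-positive replicate 3 and CCR2-negative replicate 1, the difference of 0.21 ± 0.11 had an interval of -0.043 to 0.47, and the adjusted p was 0.477. H1f2, the gene of H1.2, had 9.37, 9.49 and 9.08 in CCR2-positive and 9.94, 9.10 and 9.44 in CCR2-negative pools. Its CCR2-negative pools spanned more than the difference of -0.18 ± 0.21. H1f1 had 7.95, 7.88 and 7.53 in CCR2-positive and 8.28, 7.85 and 7.70 in CCR2-negative pools. The groups overlapped, and the difference was -0.16 ± 0.17.

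H1f7, the linker histone of spermatids, had 4.99, 4.64 and 4.96 in CCR2-positive and 4.59, 4.40 and 4.51 in CCR2-negative pools. All CCR2-positive pools lay above, by 0.36 ± 0.13, with an unadjusted p of 0.0184 and an adjusted p of 0.311. Its mean lay under the median level of all genes, and signal over background is not known for it. H1f8, the oocyte linker histone gene, had 5.62, 5.47 and 5.89 in CCR2-positive and 5.52, 5.62 and 5.47 in CCR2-negative pools, with overlap. The other H1 genes, H1f3, H1f6 and H1f10, differed by -0.16 to -0.038. The median of the 8 was -0.064.

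The core histone H2A forms a dimer with H2B in the nucleosome. H2ac15 had 11.11, 11.28 and 11.06 in CCR2-positive and 11.20, 10.73 and 11.21 in CCR2-negative pools. CCR2-negative replicate 2 was the lowest and the rest were alike, so that the difference was 0.11 ± 0.15. H2ac10 had 10.72, 10.45 and 10.38 in CCR2-positive and 10.66, 10.36 and 10.49 in CCR2-negative pools. The groups covered the same range, and the interval ran from -0.29 to 0.31. H2ac21 had 10.41, 10.21 and 10.21 in CCR2-positive and 10.77, 10.12 and 10.14 in CCR2-negative pools. Here CCR2-negative replicate 1 alone was high, and a second probe set of H2ac21 gave a difference of -0.026 where the one used gave -0.065.

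H2ac1, a testis H2A gene, had 5.42, 5.46 and 5.88 in CCR2-positive and 5.14, 6.22 and 6.00 in CCR2-negative pools. The CCR2-negative pools enclosed the others, and the difference was -0.20 ± 0.27. H2ac12 had 2.82, 3.09 and 3.004 in CCR2-positive and 3.15, 2.92 and 2.99 in CCR2-negative pools, close to the lowest value of the table (2.39). H2ac20 differed by -0.032 ± 0.20. All 6 H2A genes overlapped between the groups, with a median of -0.039, and 5 of the 6 had intervals inside a 1.5-fold difference.

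The H2B genes had the widest range of differences of the 4 classes, from -0.60 to 0.61. H2bc9 (formerly Hist1h2bh) lies on chromosome 13. It had 6.30, 6.52 and 6.66 in CCR2-positive and 5.55, 5.87 and 6.23 in CCR2-negative pools. Every CCR2-positive pool was higher, though CCR2-positive replicate 1 and CCR2-negative replicate 3 lay close together. The 1.52-fold difference of 0.61 ± 0.18 had an interval of 0.20 to 1.02, an unadjusted p of 0.00870 and an adjusted p of 0.259.

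H2bc21 (formerly Hist2h2be) encodes H2BE, a variant studied in mouse olfactory neurons, and lies on chromosome 3 beside H2ac20. It had 6.01, 6.03 and 6.15 in CCR2-positive and 7.08, 6.30 and 6.46 in CCR2-negative pools. All CCR2-positive pools lay below, and CCR2-negative replicate 1 was far above the others of its group. The 1.46-fold difference of -0.55 ± 0.19 had an interval of -0.98 to -0.11, an unadjusted p of 0.0192 and an adjusted p of 0.314. Without CCR2-negative replicate 1 it was -0.31, the smallest in size of the 6 values with 1 pool left out. Its neighbour H2ac20 had 9.33, 9.19 and 8.73 in CCR2-positive and 9.50, 8.99 and 8.85 in CCR2-negative pools, which overlapped.

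H2bc3 had 8.73, 8.72 and 9.04 in CCR2-positive and 8.74, 8.33 and 8.61 in CCR2-negative pools, with a difference of 0.27 ± 0.14. H2bc18, on chromosome 3, had 7.69, 7.38 and 7.62 in CCR2-positive and 8.48, 7.84 and 7.48 in CCR2-negative pools, with a difference of -0.37 ± 0.23. The groups overlapped in both genes. In H2bc18 CCR2-negative replicate 1 was again the highest, and without it the difference was -0.092. H2bc12 had the widest interval of the family, -1.58 to 0.38. Its values were 7.90, 7.40 and 6.00 in CCR2-positive and 7.68, 8.10 and 7.33 in CCR2-negative pools, so that its difference of -0.60 ± 0.43 rested on CCR2-positive replicate 3. Without that pool it was -0.051. The other H2B genes, H2bc1, H2bc14 and H2bc22, differed by -0.13 to 0.21. The median of the 8 was -0.094, that of the 6 over the 25th percentile of level -0.21 and that of the 5 over the median level -0.37. Of the 8 intervals, 2 lay inside a 1.5-fold difference.

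The core histone H4 pairs with H3 at the centre of the nucleosome. H4c12 had 11.61, 11.54 and 11.66 in CCR2-positive and 11.62, 11.62 and 11.69 in CCR2-negative pools. All pools were alike, and the difference of -0.042 ± 0.096 had the narrowest interval of the family, -0.26 to 0.18. H4c9 had 7.03, 6.73 and 7.89 in CCR2-positive and 7.15, 7.65 and 6.89 in CCR2-negative pools. Its pools spread widely within both groups, around a difference of -0.015 ± 0.30.

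H4c1 had 4.45, 4.60 and 4.36 in CCR2-positive and 4.38, 3.94 and 4.36 in CCR2-negative pools, with a difference of 0.25 ± 0.14. H4c17 had 3.40, 3.48 and 3.11 in CCR2-positive and 3.37, 3.13 and 3.18 in CCR2-negative pools. H4c8 had 2.79, 4.42 and 3.26 in CCR2-positive and 3.11, 3.05 and 2.88 in CCR2-negative pools. The groups overlapped in all 3 genes, and the H4c8 difference of 0.48 ± 0.35 rested on CCR2-positive replicate 2, being 0.013 without it. H4c2 and H4c14 differed by -0.025 and 0.0098. The H4 median was 0.0098, and 5 of the 7 H4 genes lay under the 25th percentile of level over all genes.

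H3 and further histone genes were represented by 38 probe sets that list several genes, histones among them. Which of the listed genes each probe set measures was not tested. Sets with lists of the same length differed in level, those of 10 H2A genes having means from 3.37 to 11.17. Probe sets with 1 listed gene may also take up transcripts of close copies, which was not tested. Of the 38 probe sets, 30 list histone genes of the rule alone, and 28 of the 30 hold values of their own. Fitted among all 41345 probe sets, 0 of the 28 passed the adjusted threshold (background 0%), 3 had an unadjusted p under 0.05 (10.7%, background 10.7%), and 5 did not overlap between the groups (17.9%, background 17.7%). Of the 28, 14 were higher and 14 lower, with a median of 0.0047, where the median of all probe sets was 0.020.

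All 12 shared H3 probe sets list H3 genes only, and their median difference was 0.043, with 7 higher and 5 lower. The pair over the median level of all genes was near 8. The first, listing 8 H3 genes, had 8.25, 7.94 and 8.03 in CCR2-positive and 8.15, 7.95 and 7.99 in CCR2-negative pools, a difference of 0.041 ± 0.12. The second, listing 4 H3 genes, had 8.20, 8.36 and 8.26 in CCR2-positive and 9.14, 7.78 and 8.88 in CCR2-negative pools. Its groups overlapped widely, with a difference of -0.33 ± 0.34. A dim H3 probe set had 5.16, 4.11 and 4.55 in CCR2-positive and 3.74, 3.59 and 3.66 in CCR2-negative pools. It was higher in every CCR2-positive pool, by 0.94 ± 0.26, with an unadjusted p of 0.00904 and an adjusted p of 0.348.

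Among shared H2B probe sets, 1 that lists 4 H2B genes had 12.67, 12.63 and 12.53 in CCR2-positive and 12.62, 12.51 and 12.62 in CCR2-negative pools. That overlap left a difference of 0.025 ± 0.093. A second listing the same number had 8.84, 9.03 and 8.99 in CCR2-positive and 8.68, 8.59 and 8.75 in CCR2-negative pools. All of its CCR2-positive pools were higher, by 0.28 ± 0.10, with an unadjusted p of 0.0311 and an adjusted p of 0.426. A shared H2A probe set that lists 10 genes had 5.66, 6.92 and 5.84 in CCR2-positive and 8.08, 7.28 and 6.65 in CCR2-negative pools. Its difference of -1.19 ± 0.46 was the largest of the 28, with overlap and an adjusted p of 0.444. The 9 shared H2A sets of the rule had a median of -0.16, with 3 higher and 6 lower. Of those that list 10 genes, the brightest, with a mean of 11.17, differed by 0.033 ± 0.10. The shared H4 probe set of the rule differed by -0.17 ± 0.13.

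Single pools differed within the groups. CCR2-negative replicate 1 was the highest of the 6 pools for 9 of the 29 histone genes (31%) and for 14.8% of all genes. Among the 16 histone genes over the median level it was the highest for 7 (43.8%), at a median of 0.22 above each gene's mean over the pools. No other pool's median lay further than 0.098 from 0 in these 16 genes. The 5 genes of chromosome 3 had a mean of 7.53, 7.40 and 7.42 in CCR2-positive and 8.02, 7.54 and 7.39 in CCR2-negative pools. CCR2-negative replicate 1 was the highest for 4 of them, H2ac20, H2ac21, H2bc18 and H2bc21. The 21 genes of chromosome 13 had a mean of 6.64, 6.65 and 6.57 in CCR2-positive and 6.64, 6.55 and 6.57 in CCR2-negative pools, and CCR2-negative replicate 1 was the highest for 4 of them. Without this pool the median difference of the 29 genes was 0.021 and that of H2A genes 0.12. Then 9 of 29 genes did not overlap, where 26.7% of all genes did not. This pool also had the lowest erythroid (7.84), neutrophil (5.27) and monocyte (5.91) list means of the 6, and the part of that in the histone values was not tested.

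**Figure D3:**
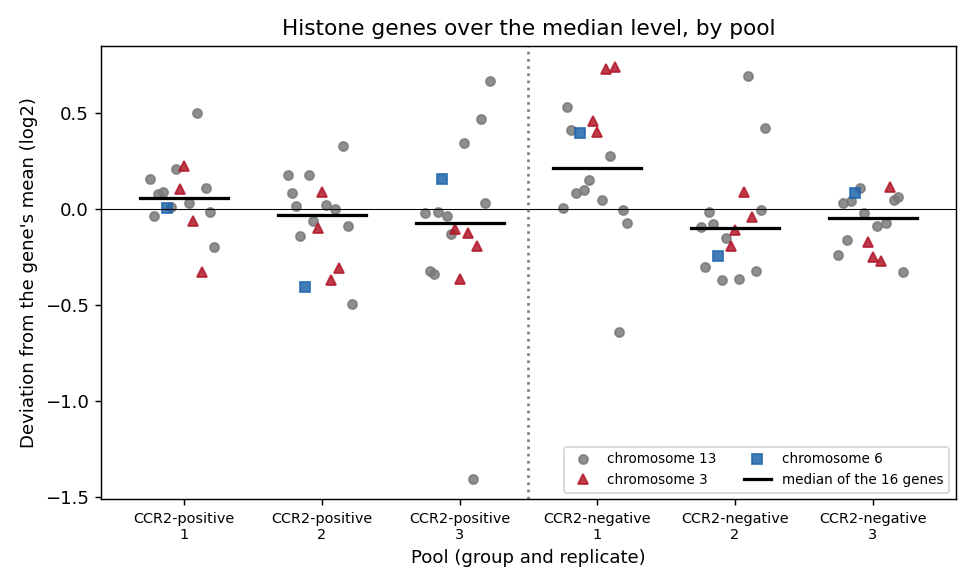
Deviation of each of the 16 histone genes over the median level from its own mean over the 6 pools (log2, vertical axis), by pool; symbols mark the chromosome and black bars the median of the 16. The bar of CCR2-negative replicate 1 is at 0.22, and its 4 genes of chromosome 3 are all above 0. The low point of CCR2-positive replicate 3 is H2bc12.

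Genes that make and handle histone mRNA were set beside the family, from a list of SLBP, the U7 and cleavage factors, decay factors and the regulators of histone transcription. Of 22 measured, 9 had a higher and 13 a lower mean in CCR2-positive pools, with a median of -0.029, and 0 passed. Slbp, the stem-loop binding protein gene, had 8.71, 8.80 and 8.10 in CCR2-positive and 8.63, 8.55 and 8.51 in CCR2-negative pools, a difference of -0.026 ± 0.18. Npat, the cyclin E-CDK2 target that activates histone transcription, had 7.30, 7.69 and 6.93 in CCR2-positive and 7.23, 7.17 and 7.11 in CCR2-negative pools. In both genes CCR2-positive replicate 3 was the lowest of all pools, and the groups overlapped. Sympk, which encodes the scaffold symplekin of the cleavage complex, had 8.24, 8.37 and 7.90 in CCR2-positive and 7.85, 7.57 and 7.80 in CCR2-negative pools. It was the single gene of the 22 whose pools did not overlap (4.55%, background 18.6%), with a difference of 0.43 ± 0.14 and an adjusted p of 0.305. Lsm10, a U7 particle protein gene, differed by -0.36 ± 0.20, Hinfp, an activator of H4 genes, by -0.28 ± 0.14 and Tut4, a terminal uridylyltransferase gene, by -0.22 ± 0.11.

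Histone chaperones carry histones to and from DNA. Of 22 measured, 14 were higher and 8 lower in mean, with a median of 0.072, and 0 passed. Asf1b, a chaperone of new H3 and H4 in dividing cells, differed by 0.38 ± 0.19, with overlap. Atrx, which deposits H3.3 at repeats, differed by -0.23 ± 0.10, and Ubn1, of the HIRA complex, by -0.32 ± 0.16. Both were lower in all CCR2-positive pools, and Mcm2, also on this list, was higher in all of them. These were the 3 of 22 chaperone genes whose pools did not overlap (13.6%, background 18.6%). Without CCR2-positive replicate 1 the Asf1b difference was 0.22, and without CCR2-positive replicate 3 that of Ubn1 was -0.16. Of 9 replacement histone genes outside the family, 4 were higher and 5 lower in mean, with a median of -0.014, and 0 passed. Macroh2a1, which encodes macroH2A1, had 8.36, 8.61 and 8.36 in CCR2-positive and 8.72, 8.75 and 8.85 in CCR2-negative pools. All CCR2-positive pools lay below, with a difference of -0.33 ± 0.11 and an adjusted limma p of 0.306. It was the 1 gene of the 9 whose pools did not overlap (11.1%, background 18.6%). The H2A.Z genes H2az1 and H2az2 differed by 0.12 ± 0.11 and -0.20 ± 0.14, and Macroh2a2 by 0.19.

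S phase genes, with which histone genes are known to be transcribed, had a median of 0.073 over 29 genes, 20 of them higher in mean, and 0 passed. Slbp is also on this list and Mcm2 on that of the chaperones. The pools did not overlap for 7 of the 29 (24.1%, background 18.6%). Of the 7, 6 were higher in CCR2-positive pools (background 10.8%) and 1 was lower (background 7.88%). An unadjusted limma p under 0.05 was reached by 3 S phase genes (10.3%), all 3 higher in CCR2-positive pools (background for higher 5.63%). It was reached by 1 gene each of the mRNA processing (4.55%), replacement histone (11.1%) and G2 and mitosis (4.35%) lists, and by 0 chaperone genes (0%). Without regard to direction, all 5 shares lay under the 12.2% of all genes. The gene of cyclin E1, Ccne1, which drives entry into S phase, had a difference of 0.46 ± 0.12. Origin licensing factor Cdc6 had 0.60 ± 0.20, the ribonucleotide reductase subunit Rrm2 had 0.39 ± 0.12 and the helicase subunit Mcm2 had 0.29 ± 0.14. In all 4 every CCR2-positive pool lay above, though without CCR2-positive replicate 2 Cdc6 was at 0.37 and Mcm2 at 0.15. For Mcm2 the groups nearly met, at 8.421 in CCR2-positive replicate 3 and 8.418 in CCR2-negative replicate 3. The 23 genes of G2 and mitosis had a median of -0.076, with 8 higher and 15 lower and 0 passed. The pools were apart for 0 of these 23 (0%, background 18.6%). All 23, and all 29 S phase genes, lay over the median level of all genes. The median difference of all genes over that level was -0.033. The share of cycling cells in the pools was not measured. Mki67, the gene of the proliferation antigen Ki-67, had 9.57, 9.84 and 9.65 in CCR2-positive and 9.75, 9.71 and 9.86 in CCR2-negative pools. That overlap left a difference of -0.085 ± 0.11. The kinetochore gene Ndc80 differed by -0.63 ± 0.26, and by -0.37 without CCR2-negative replicate 2. The other 3 named differed less, the cyclin B2 gene Ccnb2 by -0.26 ± 0.15, Nusap1, a spindle protein gene, by -0.21 ± 0.13 and Ube2c, of the anaphase-promoting machinery, by 0.16 ± 0.11.

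By pool, the S phase list and the histone core were highest in different libraries. The S phase mean was 8.38, 8.63 and 8.26 in CCR2-positive and 8.31, 8.39 and 8.30 in CCR2-negative pools, with CCR2-positive replicate 2 on top. The mean of the 23 core histone genes was 7.13, 7.13 and 7.02 in CCR2-positive and 7.24, 7.02 and 7.01 in CCR2-negative pools, with CCR2-negative replicate 1 on top. The mean of the G2 and mitosis genes was 8.69, 8.89 and 8.57 in CCR2-positive and 8.67, 8.91 and 8.78 in CCR2-negative pools. CCR2-positive replicate 3 had the lowest mean of both cell cycle lists. It was also lowest for the mRNA processing (7.40), replacement histone (7.21) and chaperone (8.36) lists. Over all genes this pool was the highest for 24.9% and the lowest for 19.7%. No correlation was computed between the list means.

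**Figure D4:**
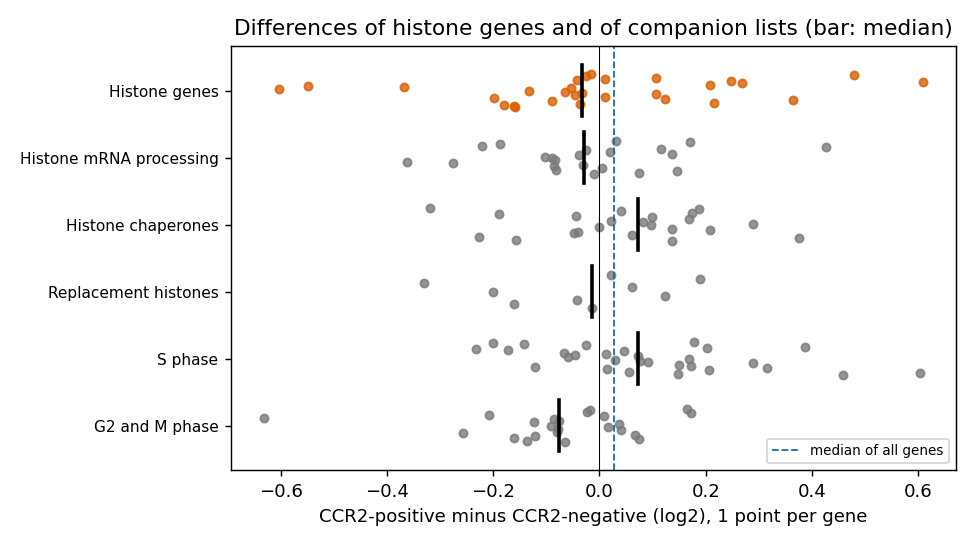
Difference of each gene, CCR2-positive minus CCR2-negative on the log2 scale, for the 29 histone genes (orange) and 5 companion lists (grey); black bars are list medians and the dashed line the median of all genes (0.027). The list medians lie between -0.076 and 0.073, and the histone genes reach from -0.60 to 0.61. Among genes over the median level, where all S phase and all G2 and mitosis genes lie, the median of all genes was -0.033.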

How the data were processed

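The authors deposited 1 table of log2 values, 41345 probe sets by 6 arrays, made with RMA per the submitters' processing notes (background correction, quantile normalization, probe set summary; version and settings not given in the sources used here). Per the labels' protocols, 5 ng of total RNA per pool was amplified with a whole-transcriptome kit. How that kit primes mRNA without a poly(A) tail is not stated there, and it could bear on histone levels. No detection calls or raw intensities were used here, so signal over background is unknown, and precision rests on how many arrays there are. Equalised distributions make changes relative to other genes.

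Of the probe sets, 23521 have 1 gene, 1814 several and 16010 none listed. The probe set with the highest mean over the 6 arrays stood for a gene. All 29 histone genes matched RefSeq (GRCm38.p6) by gene number. CCR2-positive and CCR2-negative pools were compared with limma 3.58.1 in R 4.3.3 (lmFit, eBayes, no covariate) over 22180 genes, with Benjamini-Hochberg adjustment. Probe sets of several genes were fitted among all 41345. P-values measure the spread between pools, which includes amplification. Members and lists were chosen with earlier results of these data known. Values of every pool are given for up to 4 genes of each class with the smallest p and the 2 with the highest mean, and companion lists are named by up to 4 genes with the smallest p plus Slbp, Npat and Mki67. H2ac20 and H2bc12 were given by pool after their values were seen. Companion genes were matched by symbol or RefSeq synonym. Alternatives were filters on dim genes, second quantile normalization, median centring, cyclic loess, replicate block, mean of probe sets, shared probe sets, other variance settings, and each pool left out.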

Additional observations from a re-analysis of the deposited data

How the results depend on the processing

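No histone gene passed the adjusted threshold under any alternative run, 6 fits with 1 pool left out included. An unadjusted limma p under 0.05 was found for 3 in the main fit and for 3 to 4 with 1 pool left out. Of 471 values of single histone genes under alternatives, 32 changed sign. With a second quantile normalization H1f3 was 0.033, H4c14 -0.015, H4c9 0.078, Slbp 0.020 and the H4 median 0.078. With median centring H2ac10 was -0.012 and H4c14 -0.014. With cyclic loess H1f3 was 0.0074, H2ac20 0.0010, H4c14 -0.044, H4c9 0.035 and Slbp 0.018. With array weights H2ac20 was 0.086 and Slbp 0.062. Among genes over the median level the H1 median was -0.16 and the H2B median -0.37, of fewer genes. With shared probe sets added 8 of 57 features did not overlap (14%), and 8 of 63 with further such sets (12.7%), against 18.6% of all features under both, the second an alternative chosen after seeing the data, as was leaving out the testis, oocyte and H1x genes. Leaving out 1 pool at a time, with 2 pools in that group, gave a family median of -0.061 to 0.021, medians of -0.092 to 0.025 for H1, -0.10 to 0.12 for H2A, -0.13 to -0.060 for H2B and -0.036 to 0.10 for H4, and 4 to 9 non-overlapping genes, the 9 where CCR2-negative replicate 1 was left out, and 8 where it was CCR2-positive replicate 3. That is 13.8% to 31% of the 29, where 26.7% to 32.8% of all genes did not overlap in these fits. There H1f1 ran from -0.28 to 0.0077, H1f10 from -0.32 to 0.0029, H1f2 from -0.37 to 0.043, H1f3 from -0.093 to 0.021, H2ac1 from -0.53 to 0.019, H2ac10 from -0.091 to 0.091, H2ac12 from -0.11 to 0.028, H2ac15 from -0.053 to 0.19, H2ac20 from -0.16 to 0.16, H2ac21 from -0.18 to 0.15, H2bc14 from -0.11 to 0.026, H2bc22 from -0.012 to 0.34, H4c14 from -0.095 to 0.10, H4c2 from -0.053 to 0.011, H4c9 from -0.35 to 0.23, Npat from -0.054 to 0.32 and Slbp from -0.16 to 0.19. H2bc9 kept its sign at 0.44 to 0.78, H2bc21 at -0.71 to -0.31 and H1f7 at 0.30 to 0.47. Beyond fewer genes or pools, the cause was not tested. With the replicate number as a block, 0 histone genes passed, the family median was -0.032 and the smallest adjusted limma p over all genes was 0.0618. The numbers were not taken as pairs because the labels do not say that equal numbers share mice. Same-numbered pools deviated together with correlations of 0.035, 0.089 and 0.045, and pools of unlike number with -0.10 to 0.068. These values cannot decide if the pools were paired. The block changed no other call. Values near the lowest of the table, as for most H4 genes, may lie at background, which these files do not show.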
